A study of Mus musculus with 6 samples.

Results

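Microglia and complement C1q transcripts were followed through retina of 2-day-old mice (postnatal day 2, P2). The set was 9 genes, taken by name from a table of 20175 genes: Csf1r, Cx3cr1, P2ry12, C1qa, C1qb, C1qc, Trem2, Tyrobp and Aif1. Each of the 9 names matched 1 row, and all 9 were abundant enough to be tested. Whole retina was sequenced as poly-A RNA from 3 Zeb2 mutant samples (Zeb2 loxp/loxp αCre, a floxed Zeb2 gene on each chromosome plus a Cre transgene) and from 3 samples labelled only as controls, whose alleles and strain the labels leave out. The αCre driver is a Cre recombinase known to be active in progenitors of the peripheral retina, and Zeb2 encodes a zinc-finger transcription factor. The labels do not say whether replicates were separate animals or litters. The p-values therefore measure the spread between libraries alone, some of which may be technical.

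Microglia are the resident macrophages of the central nervous system. They arise from yolk sac precursors rather than from retinal progenitors, enter the retina before birth, and clear dying neurons and excess synapses there. CSF1R, the receptor for CSF1 and IL-34, keeps them alive, CX3CR1 and P2RY12 read signals from neurons and from damaged cells, and TREM2 signals through the adaptor DAP12, the product of Tyrobp. C1q starts the classical complement pathway. It is built from A, B and C chains, in the brain mostly made by microglia, and it tags synapses and cell debris for removal. Because RNA came from whole tissue, a difference in the number of microglia and one in RNA per microglial cell cannot be told apart in any value below.

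The 9 genes lay higher on average in mutant retinas, but none passed the test across all genes. Their log2 fold changes ran from 0.23 for Tyrobp to 0.54 for C1qb, with a median of 0.41, against a median of -0.0067 over the 16064 genes tested. With limma none of the 9 was called at an adjusted p of 0.05, where 1.15% of all genes tested were called and 0.928% were called higher. Only Csf1r had an unadjusted p under 0.05, as 17.3% of all genes did and 9.01% in the higher direction. In 8 of the 9 genes the groups overlapped, and they did not in Csf1r. Among all genes tested they did not overlap in 23.2%, and in 11.5% the mutants were the higher group. On whole reads, DESeq2 and edgeR's quasi-likelihood method called 0 of the 9 as well.

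Libraries of the same group also differed widely. Summed over the 9 genes, the normalised count was 2485.3, 2982 and 2310.6 in mutant libraries 1, 2 and 3, against 1467.2, 2625.8 and 1910.8 in control libraries 1, 2 and 3. Control library 1 was the lowest of all 6 libraries for 8 genes and lay below every mutant library for all 9. Control library 2 was the highest control for all 9 genes, and for 8 of them it lay within or above the mutant range. The mean sum was 2593 ± 348 in mutants and 2001 ± 585 in controls (SD, n = 3 each), so the difference of the means was close to the spread between controls. Leaving out control library 1 brought the median log2 fold change to 0.22, leaving out control library 2 brought it to 0.66, and leaving out mutant library 2 brought it to 0.25. The 9 genes held 85.0 to 109 of every 1000000 reads in mutants and 52.9 to 95.4 in controls, a small share of libraries of 26041200 to 32614805 recovered reads.

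**Figure D1:**
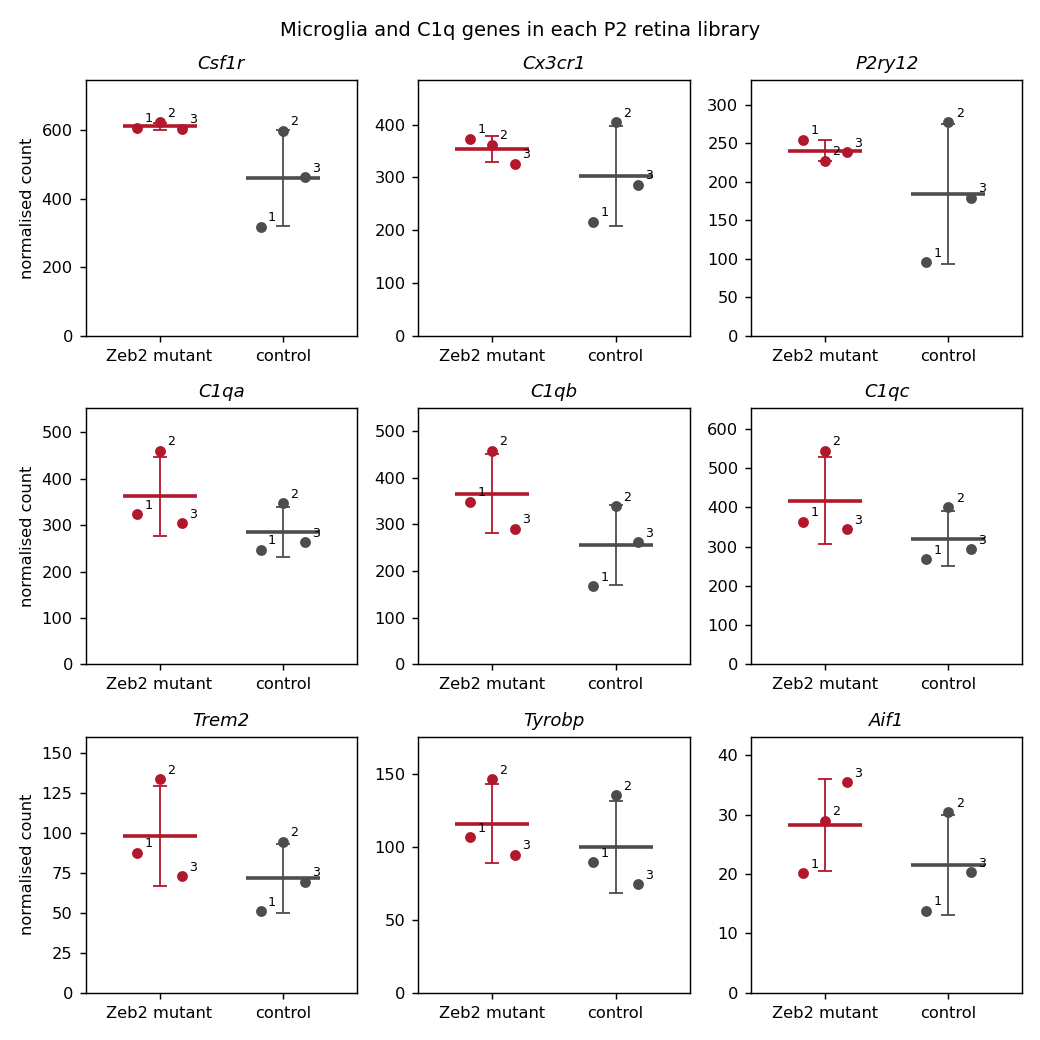
Normalised counts of the 9 genes (vertical axes, from 0) in 3 Zeb2 mutant and 3 control P2 retina libraries. Points are libraries numbered by replicate, horizontal bars are group means and error bars 1 SD. Control library 2 stands at the level of the mutants for most genes and control library 1 below all 3 mutants for each gene.

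The receptor genes that define homeostatic microglia varied little among mutants and widely among controls. Csf1r (ENSMUSG00000024621; GRCm38 chromosome 18, 61100598 to 61132149, plus strand), which encodes the survival receptor, had 607.6, 623.1 and 604.3 normalised counts in mutants, against 318.4, 599 and 462.9 in controls. All 3 mutant values lay above the controls, the nearest control being 599. The log2 fold change was 0.46 ± 0.19 (SE; 95% interval 0.022 to 0.89; limma adjusted p = 0.264), and the exact 2-sided permutation test returned p = 0.1, the lowest value possible with 3 samples in each group. Over the alternatives the adjusted p of Csf1r ranged from 0.1003 to 0.538. Exons of Csf1r overlap those of Hmgxb3 on the other strand, and since no source used here states the strand setting of the counting, reads of the overlap cannot be told apart. Hmgxb3 itself averaged 1405 ± 86.5 in mutants and 1462 ± 54.4 in controls (SD, n = 3 each; limma adjusted p = 0.673).

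Cx3cr1 (ENSMUSG00000052336; chromosome 9, 119901616 to 120069879, minus strand) encodes the receptor for the neuronal chemokine fractalkine. It had 373, 361.9 and 326 normalised counts in mutants, against 216.2, 403.9 and 286 in controls, and control library 2 was the highest of the 6. P2ry12 (ENSMUSG00000036353; chromosome 3, 59216272 to 59262871, minus strand), a purine receptor used to tell microglia from other macrophages, had 254.7, 227.4 and 238.7 in mutants, against 95.8, 277 and 179.4 in controls. Here too control library 2 was the highest and control library 1 the lowest. The log2 fold changes were 0.27 ± 0.20 for Cx3cr1 and 0.51 ± 0.32 for P2ry12 (SE; limma adjusted p = 0.530 and 0.457), with 95% intervals of -0.18 to 0.72 and -0.21 to 1.23. Without control library 2 the log2 fold change of P2ry12 was 0.87 and without control library 1 it was 0.11. Exons of P2ry12 overlap Med12l on the other strand, which averaged 719 ± 67.6 in mutants and 754 ± 47.1 in controls (SD, n = 3 each; limma adjusted p = 0.728).

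The C1q subunit genes sit side by side on GRCm38 chromosome 4, all on the minus strand: C1qb (ENSMUSG00000036905) at 136880129 to 136886187, C1qc (ENSMUSG00000036896) at 136889804 to 136893065 and C1qa (ENSMUSG00000036887) at 136895917 to 136898803. Because these neighbours moved together across libraries, the RefSeq promoter windows of C1qb and C1qc are shown, from 250 bases before to 50 after the start. They read 5′ to 3′ on the minus strand of GRCm38.p6, at chr4:136886151-136886450 for C1qb and chr4:136892865-136893164 for C1qc. Capitals mark GAGGAA, a core bound by the myeloid ETS factor PU.1, and CACCTG, an E-box of the kind ZEB factors bind, each searched on both strands, so that the complement reads TTCCTC or CAGGTG.
C1qb: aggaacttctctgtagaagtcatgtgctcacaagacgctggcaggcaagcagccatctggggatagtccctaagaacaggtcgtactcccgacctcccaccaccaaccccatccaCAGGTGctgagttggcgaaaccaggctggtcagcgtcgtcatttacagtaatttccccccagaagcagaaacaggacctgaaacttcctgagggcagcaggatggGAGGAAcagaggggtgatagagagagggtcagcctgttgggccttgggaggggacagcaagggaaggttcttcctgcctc
C1qc: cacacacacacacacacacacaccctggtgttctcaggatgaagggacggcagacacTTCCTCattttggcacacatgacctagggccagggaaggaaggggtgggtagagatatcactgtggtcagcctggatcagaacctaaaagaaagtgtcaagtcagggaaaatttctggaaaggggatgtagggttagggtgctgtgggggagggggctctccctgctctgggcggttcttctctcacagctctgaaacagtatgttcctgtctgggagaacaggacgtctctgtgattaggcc
GAGGAA occurred in both windows and CACCTG in that of C1qb alone. Of the 6 members with a promoter window in the RefSeq table, GAGGAA was also in those of Aif1 and Trem2 and neither motif in those of P2ry12 and Cx3cr1. Among all 32851 windows of the same length, 28.3% held GAGGAA, 20.2% CACCTG and 5.45% both. Such a match is a run of letters and not a measured binding site.

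C1qa had 323.3, 459.6 and 303.7 normalised counts in mutants, against 247, 347.2 and 263.2 in controls. C1qb had 348.7, 457.6 and 290.5 in mutants, against 168.2, 338.9 and 262.3 in controls. C1qc had 363.5, 543.8 and 344.3 in mutants, against 267.3, 399.7 and 292.8 in controls. For all 3 chains mutant library 2 was the highest of the 6 libraries, control library 1 the lowest, and control library 2 above mutant library 3. The log2 fold changes were 0.33 ± 0.18 for C1qa, 0.54 ± 0.25 for C1qb and 0.37 ± 0.20 for C1qc (SE; limma adjusted p = 0.389, 0.313 and 0.380), and each 95% interval reached below 0, to -0.079, -0.031 and -0.081. Without mutant library 2 they were 0.15, 0.37 and 0.17. The exact 2-sided permutation test gave p = 0.3, 0.2 and 0.3.

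**Figure D2:**
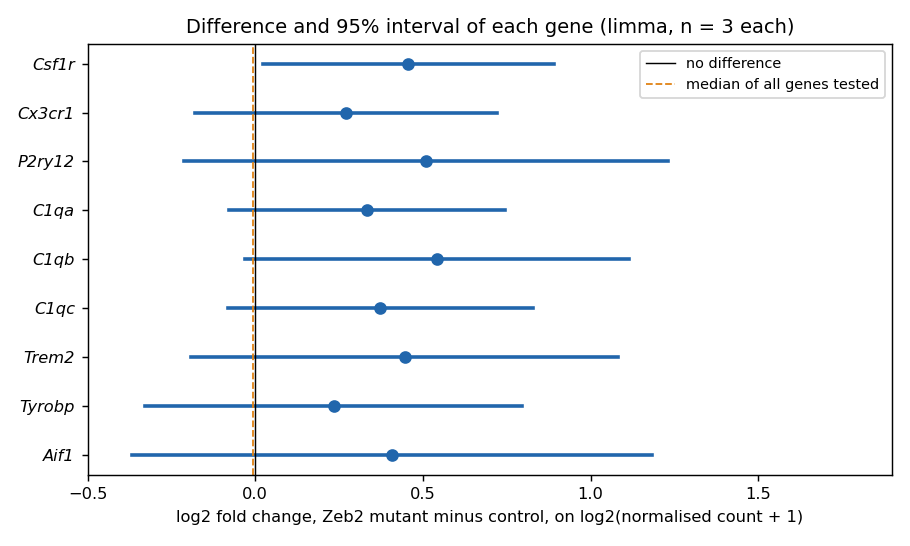
Log2 fold change of each gene, Zeb2 mutant minus control, on log2(normalised count + 1) (horizontal axis), with the 95% interval from limma (n = 3 each). All 9 estimates lie above 0 and above the dashed median of all genes tested, and only the interval of Csf1r, 0.022 to 0.89, leaves out 0.

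The 3 chains kept nearly fixed proportions in 5 of the 6 libraries. C1qb took 33.7%, 31.3% and 31.0% of the C1q reads in mutant libraries 1, 2 and 3, against 24.6%, 31.2% and 32.1% in control libraries 1, 2 and 3. The share in control library 1 rested on 641 C1q reads, with a 95% Wilson interval of 21.5% to 28.1%, and its upper bound met the lowest bound of the other 5 libraries, also 28.1%. These intervals cover counting error only. C1qa took 31.2% to 32.4% of the C1q reads in mutants and 32.0% to 36.2% in controls, and C1qc 35.1% to 37.2% in mutants and 35.8% to 39.2% in controls.

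C1q transcripts were also set against the microglial receptor genes of the same library, which removes differences that touch both alike. The sum of the C1q genes over the sum of Csf1r, Cx3cr1 and P2ry12 was 0.838, 1.21 and 0.803 in mutants, against 1.08, 0.848 and 0.882 in controls. The means were 0.949 ± 0.223 and 0.937 ± 0.127 (SD, n = 3 each), and the values of the groups were interleaved. Mutant library 2 and control library 1, which stood at opposite ends for the sum of the 9 genes, had the highest ratios.

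**Figure D3:**
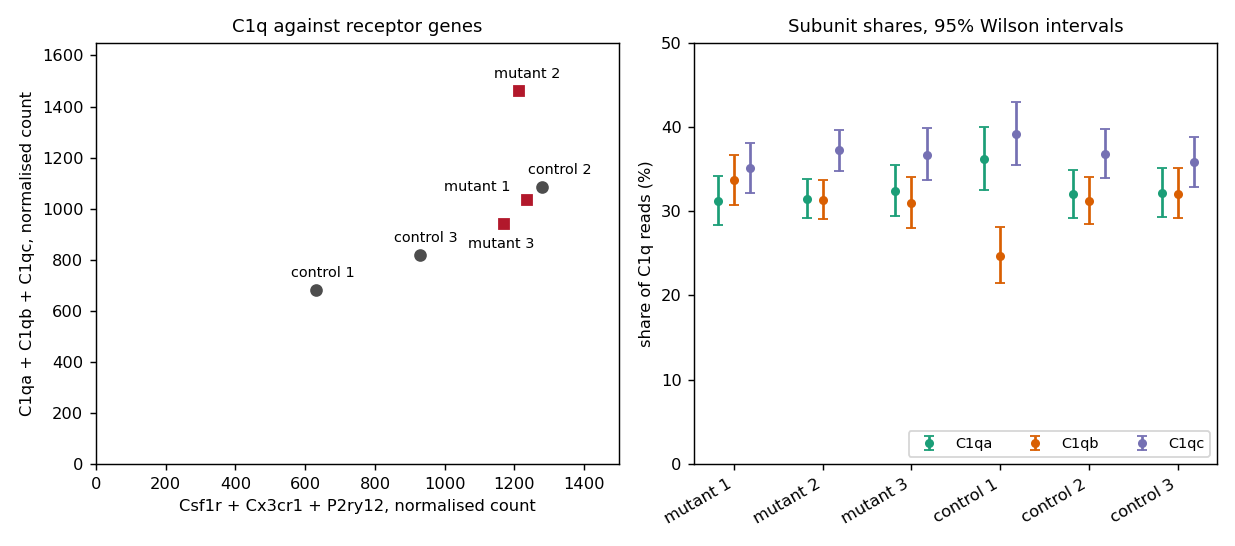
Left, summed normalised count of the C1q genes (vertical axis) against that of 3 receptor genes (horizontal axis), with mutant libraries as squares and control libraries as circles. Right, share of each subunit in the C1q reads of each library, with 95% Wilson intervals. Control library 1 holds the fewest of both and a C1qb share of 24.6%, and mutant library 2 has the most C1q.

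Trem2 and Tyrobp encode a receptor for lipids and debris and the adaptor through which it signals. Trem2 (ENSMUSG00000023992; chromosome 17, 48346401 to 48354147, plus strand) had 87.7, 133.5 and 73.1 normalised counts in mutants, against 51.1, 94.4 and 69.4 in controls. Tyrobp (ENSMUSG00000030579; chromosome 7, 30413760 to 30417585, plus strand) had 106.7, 146.1 and 94.5 in mutants, against 89.4, 135.3 and 74.5 in controls. Mutant library 2 was the highest for both genes, and control library 2 the second highest. The log2 fold changes were 0.45 ± 0.28 for Trem2 and 0.23 ± 0.25 for Tyrobp (SE; limma adjusted p = 0.461 and 0.681), with 95% intervals of -0.19 to 1.08 and -0.33 to 0.80. Without mutant library 2 they were 0.20 and 0.055. Aif1 (ENSMUSG00000024397; chromosome 17, 35170991 to 35176068, minus strand), which encodes the actin-binding protein IBA1 used to stain microglia, was the sparsest of the 9. It had 20.1, 29 and 35.5 normalised counts in mutants, against 13.8, 30.4 and 20.3 in controls, resting on 13 to 35 reads per library. Its log2 fold change was 0.41 ± 0.34 (SE; 95% interval -0.37 to 1.18; limma adjusted p = 0.591), and it was 0.14 without control library 1 and 0.68 without control library 2.

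Levels can be compared between genes only per length, so recovered reads were also divided by the length of the longest principal transcript in the annotation and by the library total in units of 1000000 reads (RPKM, scaled per kilobase). Over the 6 libraries the C1q genes led, with 11.3 RPKM for C1qa, 11.2 for C1qc and 10.4 for C1qb. Tyrobp followed at 6.95, Csf1r at 4.15, P2ry12 at 3.30, Trem2 at 2.84, Cx3cr1 at 2.66 and Aif1 at 1.04. The place of Trem2 rests on the length used, since that transcript has 1088 bases and all annotated exons of the gene together cover 4946. By the longer length Trem2 would stand lower, and the order of the genes by that length was not computed. C1qa exceeded C1qc, C1qc exceeded C1qb and C1qb exceeded Tyrobp in 5 of 6 libraries each. Tyrobp lay above Csf1r, Csf1r above P2ry12 and Cx3cr1 above Aif1 in all 6, while P2ry12 exceeded Trem2 in 4 and Trem2 exceeded Cx3cr1 in 2, so P2ry12, Trem2 and Cx3cr1 had no fixed order. In mutants C1qa averaged 12.7 ± 2.99 RPKM and Csf1r 4.76 ± 0.0806, and in controls they averaged 9.95 ± 1.91 and 3.55 ± 1.09 (SD, n = 3 each).

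The other genes known from microglia leaned the same way with all 6 libraries, but fewer kept that direction without control library 1. All 24 of them were tested and had a positive log2 fold change, with a median of 0.29, where 48% of all genes tested lay above 0. Limma and edgeR called none of them and DESeq2 1, where DESeq2 called 868 over all genes. The unadjusted limma p was under 0.05 for 17.3% of all genes tested and for 2 of the 24. Their median stood at 0.42, 0.40 and 0.074 above the control mean in mutant libraries 1, 2 and 3, against -0.43, 0.40 and 0.016 in control libraries 1, 2 and 3. Without control library 1 only 15 of the 24 lay above 0, at a median of 0.027, while all 9 genes of the main set did, at 0.22. Without mutant libraries 1 and 2 together, which leaves mutant library 3 as the only mutant, 14 of the 24 did. Itgb5, an integrin subunit gene that other cells also use, averaged 4621 ± 39.3 in mutants and 4427 ± 337 in controls (SD, n = 3 each; limma adjusted p = 0.622). Defining transcription factor and surface genes of microglia were present in all 6 libraries: Sall1 had 156.4 to 218.7 normalised counts in mutants and 125.7 to 194.1 in controls, Spi1 (PU.1) 62 to 85.6 and 35.1 to 93.4, and Tmem119 33.5 to 59.2 and 31.9 to 56.7. These 3 were chosen after their values were seen.

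Among all genes tested the groups did not overlap in 23.2%, with mutants higher in 11.5%. Of the 24, Lpcat2, which encodes a lysophospholipid acyltransferase, was alone in having groups that did not overlap, and it too was picked after its values were seen. It had 547.4, 714 and 752.6 normalised counts in mutants, against 526, 483.6 and 532.3 in controls (log2 fold change 0.37, limma adjusted p = 0.154). It was called by DESeq2 (adjusted p = 0.0496) and by limma without mutant library 1 (adjusted p = 0.0178). Its highest library was mutant library 3, which held the smallest sum of the 9 microglia genes among the mutants.

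Macrophages at the borders of the eye and blood monocytes express several of the 9 genes as well, and most of their own markers were highest in control library 2. Cd14 and Clec10a were not, with 10.5 and 3.1 there and up to 11.6 and 4.1 in mutants. Of 15 such genes 12 were in the table and 6 passed the filter on low values. None was called by limma, edgeR or DESeq2, and 0 had an unadjusted limma p under 0.05, against 17.3% of all genes tested. F13a1, the coagulation factor XIII gene of border macrophages, had 11.6, 10.6 and 2 normalised counts in mutants, against 1.1, 107 and 0 in controls. Pf4, Mrc1 and Lyve1 had 54.6, 86 and 45.1 in control library 2 and at most 6.8, 27.1 and 10.6 in any other library. F13a1 and these genes were picked after their values were seen. The 12 genes summed to 342 to 439 normalised counts in mutants and to 216, 859 and 278 in control libraries 1, 2 and 3. Cbr2 was at 0 in 4 libraries. Stab1 and Lyz2, the most abundant of them, averaged 238 ± 14.2 and 103 ± 11.1 in mutants and 231 ± 97.7 and 92.0 ± 84.0 in controls (SD, n = 3 each; limma adjusted p = 0.840 and 0.650). The part of these cells in the high microglia values of control library 2 was not tested.

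Markers of mesenchyme, lens and border macrophages varied between libraries over a wider range than the microglia genes, as the plot of list medians shows. Mesenchyme markers had medians of 4.40 and 2.88 (log2, relative to the control mean) in mutant libraries 1 and 2, and of -0.74 in mutant library 3, and their summed level ran from 1746 to 8217 in mutants and from 1580 to 2038 in controls. The astrocyte sum ran from 9427 to 15084 in mutants and from 8852 to 11065 in controls. The lens sum was 656 to 3392 in mutants and 1195 to 9830 in controls, the pigment cell sum 1891 to 3826 and 2162 to 3861, the sum of other blood cells 89.8 to 129 and 42.6 to 349, and the sum of endothelium and pericytes 18338 to 20619 and 18971 to 21867. Kdr alone averaged 18729 in that last sum, so it hides the other vessel genes. Their list median was -0.67 in mutant library 2, -0.66 in control library 1 and 0.35 in control library 2. Pecam1 had 50.3 in mutant library 2 and 151.1 in mutant library 1. Slc1a3, at a mean of 8427, and Pdgfra, at 1525, likewise weighed on the astrocyte and mesenchyme sums. Limma and edgeR called none of these marker genes. At an unadjusted limma p under 0.05 stood 4 of 7 astrocyte genes, 1 of 8 mesenchyme genes and 1 of 7 lens genes, against 17.3% of all genes tested. DESeq2, with 868 calls over all genes, called 3 astrocyte genes, Pax2, Gfap and Aqp4. Leading members by level were Pdgfra, Slc1a3, Cryaa, Pmel, Hbb-bs and Kdr, and of these Pdgfra and Slc1a3 differed little, with log2 fold changes of 0.032 and 0.0093. Lim2, a lens gene, was at 0 in every library. Without mutant libraries 1 and 2 together, which leaves mutant library 3 as the only mutant, the median of the 9 genes was 0.16. Without control library 2 as well, an alternative added once the data had been seen, it was 0.39. The part of these other tissues in the microglia values was not tested. The libraries were retinal by their most abundant markers: the photoreceptor precursor gene Crx averaged 23799 ± 2827 in mutants and 22297 ± 1082 in controls (SD, n = 3 each). Zeb2 averaged 4968 ± 658 in mutants and 6118 ± 288 in controls, 81.2% of the control mean (limma adjusted p = 0.129), and the count covers the whole gene.

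**Figure D4:**
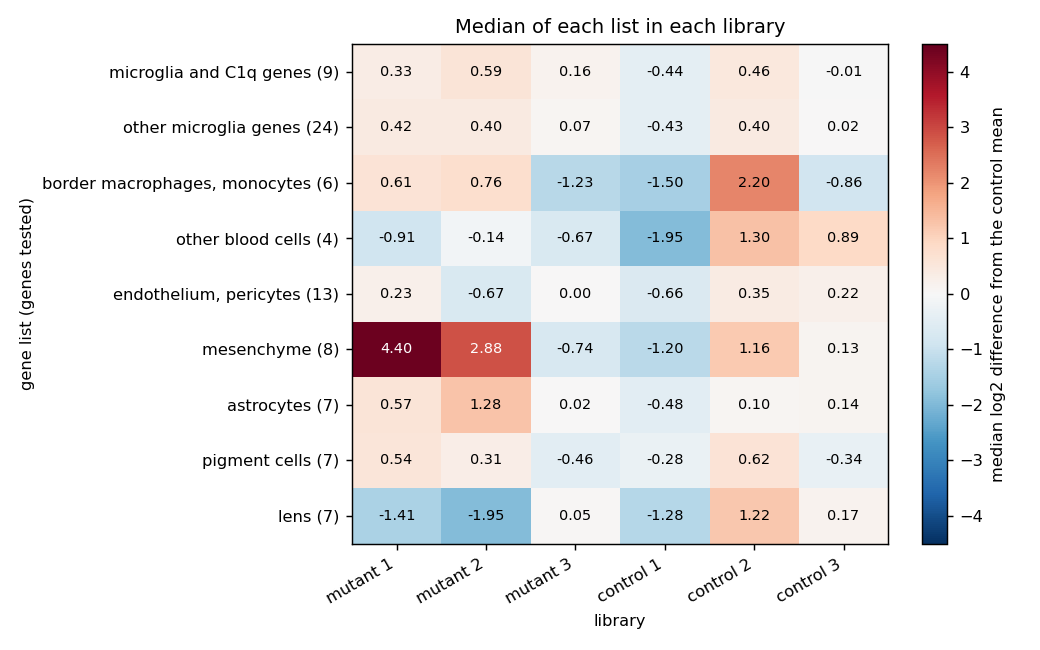
Median, over the tested genes of each list (rows, number tested in parentheses), of the log2 difference from the control mean in each library (columns, mutants left). The microglia rows range from -0.44 to 0.59, whereas mesenchyme reaches 4.40 in mutant library 1 and border macrophages 2.20 in control library 2.

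Among 87 further genes tested in the microglia, complement, signalling and ligand lists, limma and edgeR called 2, Sirpa and Mfge8, with all 6 libraries. Both are genes through which retinal cells and microglia speak to each other. Over all 16064 genes tested limma called 184, or 1.15%, and edgeR 180. DESeq2, which called 868 over all genes, called 4 of the 87, adding C4b and Lpcat2 (adjusted p = 0.00562 and 0.0496). Sirpa rose 1.38-fold. It encodes SIRPα, the receptor on phagocytes and neurons that reads the "don't eat me" protein CD47. It had 3973.1, 4667.4 and 4421 normalised counts in mutants, against 3098.7, 3110.5 and 3255.4 in controls, so that every mutant lay above every control. The log2 fold change was 0.46 ± 0.062 (SE; limma adjusted p = 0.0169).

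Mfge8 encodes a secreted bridge between dying cells and phagocytes. It fell, with a log2 fold change of -0.59 ± 0.10 (SE; limma adjusted p = 0.0355). It had 3741.7, 2837.8 and 3706 normalised counts in mutants, against 4954.7, 5434.2 and 4963.9 in controls, with no overlap. Whether either gene passed 0.05 changed with the library left out, but the size of its change moved little. In fits lacking 1 library, the log2 fold change ran from 0.41 to 0.53 for Sirpa and from -0.66 to -0.46 for Mfge8. Calls over all genes varied as well in those fits, from 27 to 600 against 184 with all 6 libraries. The limma adjusted p of Sirpa and Mfge8 was 0.1001 and 0.139 when control library 1 was left out. Leaving out mutant library 3 gave 0.0534 and 0.0580. Sirpa stood at 0.0501 when mutant library 2 was left out. Mfge8 stood at 0.0864 or 0.0748 when control library 2 or 3 was, and at 0.0568 with the replicate number as a block. Without mutant libraries 1 and 2, mutant library 3 alone stood at 0.49 and -0.46 against the controls. That direction was already set by the lack of overlap.

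Csf1 and Cx3cl1, which encode ligands of receptors among the 9, were not called by limma. Neither was Cd47, which encodes the ligand of SIRPα. Csf1 had 251.5, 230.3 and 212.3 normalised counts in mutants, against 210.8, 252.8 and 218.3 in controls (log2 fold change 0.027, limma adjusted p = 0.932). Cx3cl1, the fractalkine gene, had 570.6, 441.2 and 482.4 in mutants, against 510.1, 560.2 and 567 in controls (log2 fold change -0.14, limma adjusted p = 0.541). Il34 was near the limit of detection, with 2 to 8.7 in mutants and 4.2 to 7.3 in controls, and did not pass the filter. Cd47 averaged 2318 ± 234 in mutants and 2206 ± 160 in controls (SD, n = 3 each; limma adjusted p = 0.713).

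**Figure D5:**
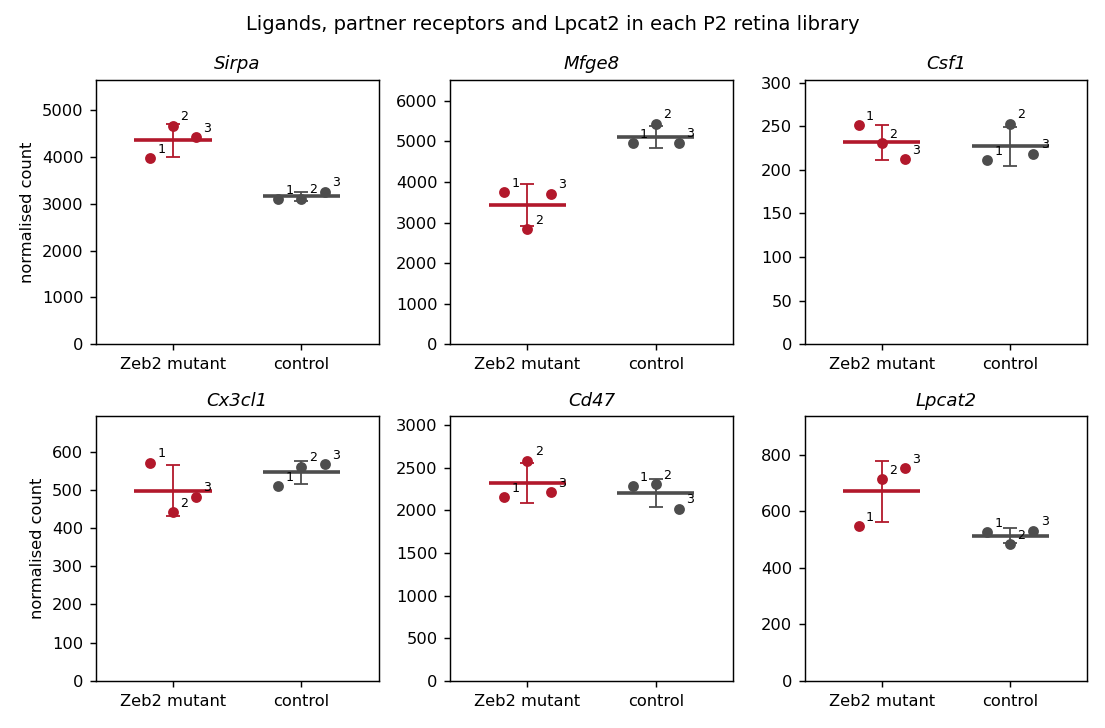
Normalised counts (vertical axes, from 0) of Sirpa, Mfge8, Csf1, Cx3cl1, Cd47 and Lpcat2 in 3 Zeb2 mutant and 3 control libraries, with group means and 1 SD. All 3 mutants lie above the controls for Sirpa and below them for Mfge8, while Csf1, Cx3cl1 and Cd47 overlap between groups.

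Beyond C1q the complement list gave no call with limma or edgeR and 1, C4b, with DESeq2. Of 22 genes, 20 were in the table and 16 were tested, 11 above 0 and 5 below, at a median of 0.12. The unadjusted limma p was under 0.05 for 1 of the 16, against 17.3% of all genes tested. C1qbp, whose product is a mitochondrial protein named for C1q binding, averaged 2577 ± 12.1 in mutants and 2651 ± 50.5 in controls, and Clu, the clusterin gene, 930 ± 157 and 778 ± 211 (SD, n = 3 each; limma adjusted p = 0.667 and 0.494). C3, the central complement component cleaved downstream of C1q, had only 13.2 to 35.9 normalised counts in mutants and 13.6 to 24.5 in controls.

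Phagocytic and lysosomal genes split evenly. Of 18 genes 17 were tested, 9 above 0 and 8 below, with a median of 0.073. Limma, edgeR and DESeq2 called none, and 2 had an unadjusted limma p under 0.05, against 17.3% of all genes tested. Apoe, a lipid carrier gene of glia and microglia, averaged 8744 ± 1277 in mutants and 7535 ± 1327 in controls, and Ctsb, the cathepsin B gene, 6724 ± 459 and 6121 ± 453 (SD, n = 3 each; limma adjusted p = 0.451 and 0.356). Downstream of CSF1R and TREM2, 15 of 18 signalling genes were tested, 9 above 0 and 6 below, with a median of 0.064. Again none of the 3 tools called a gene, and 2 had an unadjusted limma p under 0.05, against the same 17.3% of all genes. Pik3r1, a regulatory subunit gene of PI3-kinase, averaged 14481 ± 1442 in mutants and 15689 ± 792 in controls, and Fyn, a Src-family kinase gene, 4544 ± 175 and 5050 ± 106 (SD, n = 3 each; limma adjusted p = 0.469 and 0.137). Both are also expressed outside microglia.

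The genes whose pattern over the 6 libraries was most like that of the 9 were Selenop, Rwdd3, Col4a5, S1pr1 and Sec24d. Likeness was Pearson's r over 6 libraries with the mean of the 9 standardised log2 values, and it ran from 0.992 for Selenop to 0.988 for Sec24d among 13288 genes searched, 133 of which exceeded 0.9. With 6 points, which share library depth and tissue makeup, this is a description of these libraries only. Selenop, a secreted selenoprotein gene, had 732.3, 958.8 and 589.1 normalised counts in mutants, against 280.1, 834 and 451.9 in controls, and like the 9 it was lowest in control library 1 (limma adjusted p = 0.371). None of these 5 was called.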

How the data were processed

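Per the file headers, the deposited table holds normalised counts (a signal scaled by the authors for each library and rounded to 1 decimal). Tools named in the submitters' processing notes, without roles, are DESeq2, HTSeq, STAR 2.4.2a and cutadapt, with the build GRCm38. 0 other value columns were present. All values up to 1000 lay within 0.06 of whole multiples of 1 step per library, and division by it gave whole reads (99.4% to 100% of all values per library); edgeR on those reads called 180 genes. Members and lists were chosen with earlier results of these data known.

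limma 3.58.1 (R 4.3.3) was fitted to log2(normalised count + 1) of 16064 genes, those averaging 10 or more over the libraries, with a trended variance and without covariates, adjusted by Benjamini-Hochberg, 2-sided. Fold changes on this scale understate those of low genes. Named genes were the 9, Zeb2, up to 4 called genes per pathway list, filled to 2 with the most abundant, the most abundant marker of each other cell type, and the 5 genes most like the 9. A gene taken by this rule is not reported here. Of 108 further pathway genes 101 were in the table; the others are not analysed here. 37 rows shared a symbol and were kept apart by ID. Coordinates are from GENCODE M21 (20122 of 20175 IDs matched). Steps were tested on simulated data. Alternatives were other pseudocounts, filters and scalings, array weights, edgeR 4.0.16, DESeq2 1.42.0, a replicate block and leaving out libraries.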

Additional observations from a re-analysis of the deposited data

How the results depend on the processing

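The count of 0 called among the 9 genes held under all 20 alternatives, though with a minimum mean of 50 Aif1 was not tested. Of 170 values of single genes under them, 169 kept their direction and none was called, with a lowest adjusted p of 0.1003. The exception was Tyrobp, at -0.032 without mutant libraries 1 and 2 together, which leaves a single mutant library. The median over the 9 genes ranged from 0.22 to 0.66 with 1 library left out. Over all genes, 184 calls became 868 with DESeq2, 701 at an adjusted p of 0.1, 464 without mutant libraries 1 and 2 and control library 2, and 27 to 600 with 1 library left out. The 2 pathway genes called, Sirpa and Mfge8, became 4 with DESeq2 (with C4b and Lpcat2), 1 with the replicate block, 4 without those 3 libraries (with Lpcat2 and Lpl), and 0 to 3 with 1 library left out. The cause was not tested. With the replicate block 248 genes were called. Deviations of same-numbered libraries correlated at 0.016, 0.15 and -0.063, and mutant library 3 correlated best with control library 1. With so few libraries per group, these values cannot tell whether the numbers pair the samples. Aif1 rested on 13 to 35 reads and is the least precise of the 9.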

Other observations

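C4b, the gene of complement component 4 that C1s cleaves downstream of C1q, had 45.4, 57.1 and 1 normalised counts in mutant libraries 1, 2 and 3, against 2.1, 4.2 and 1.7 in controls. Gfap, the intermediate filament gene of astrocytes, had 5130.2, 3772.4 and 234.6 in mutants, against 143.8, 236 and 466.3 in controls. Mutant libraries 1 and 2 were thus high for both genes and mutant library 3 lay within or below the control range. Of the other astrocyte markers, S100b and Aqp4 shared this pattern. S100b had 361.4, 251.6 and 79.2 in mutants, against 52.2, 96.5 and 88.9 in controls. Aqp4 had 89.8, 130.6 and 19.3 in mutants, against 17, 39.9 and 20.3 in controls. Pax2, Aldh1l1, Slc1a3 and Gja1 did not share it. In mutant library 3 Pax2 and Aldh1l1 had 351.4 and 76.2 normalised counts, against at most 286.9 and 59.2 in controls. C4b was not called by limma (adjusted p = 0.338) but was by DESeq2 (adjusted p = 0.00562) and by limma without mutant library 3 (adjusted p = 0.0159). Serping1, the gene of the C1 inhibitor, had 754.5, 735.3 and 634.8 in mutants, against 593.1, 566.5 and 594.9 in controls, so the groups did not overlap (limma adjusted p = 0.132). Groups did not overlap in 23.2% of all genes tested either, with mutants higher in 11.5%. Igf1, a growth factor gene that phagocytic microglia of early postnatal life and other cells express, had 526.2, 453.8 and 460.1 in mutants, against 537.7, 607.4 and 632.1 in controls (limma adjusted p = 0.140). These genes were picked after their values were seen.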
